A study of Mus musculus with 12 samples.

Results

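The myeloid C-type lectin receptor genes Clec10a, Clec4a1, Clec4a2, Clec4d, Clec4e, Clec4n, Clec5a, Clec7a, Clec9a and Clec12a were followed across 12 RNA-seq libraries of mouse CD115+ monocytes. The genes were taken by symbol, and all 10 were found among the 52553 features of the count table and passed the filter on low counts. CD115+ cells were sorted magnetically from the mononuclear fraction of peripheral blood or spleen of C57BL/6 male mice, and each library pooled monocytes from 5 mice. The 4 groups were blood and spleen of intact mice, with spleen and liver untouched, and blood and spleen of mice 24 h after resection of 70% of the liver (PH70%) with the spleen left in place, 3 libraries each. The labels call the controls intact and do not say whether they had a sham operation, so on the labels the removal of liver tissue cannot be told apart from anaesthesia and laparotomy. Age was not given in the sources used here. Nothing states whether blood and spleen libraries of the same number came from the same animals, and p-values measure the spread between pools.

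C-type lectin receptors of myeloid cells bind sugars, lipids and products of damaged cells at the cell surface. Some signal for activation through Syk, either by its own tail motif, as Clec7a (dectin-1) and Clec9a (DNGR-1) do, or by pairing with an adaptor that carries the motif: Fcer1g for Clec4e (Mincle), Clec4d (MCL) and Clec4n (dectin-2), and Tyrobp (DAP12) for Clec5a (MDL-1). Downstream of Syk, Card9 links these receptors to NF-kB and cytokine genes. Others carry an inhibitory tail motif that recruits phosphatases such as Ptpn6 (SHP-1), as Clec4a2 (DCIR) and Clec12a (MICL) do. Clec10a (MGL1) is an endocytic receptor for galactose-type sugars and a common marker of alternatively activated macrophages. In the mouse genome 9 of the 10 genes lie on chromosome 6 and Clec10a lies on chromosome 11. Clec4n, Clec4d and Clec4e are neighbours there, and Clec12a, Clec9a and Clec7a sit in another C-type lectin cluster.

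The 250 bases before the start site are shown for the 3 genes with the highest fold changes in blood after resection (Clec4e, Clec4d and Clec5a) and for the 3 genes that did not pass the test there (Clec7a, Clec9a and Clec12a). They come from RefSeq on GRCm38.p6, 8 of the 10 genes having an entry, and are written 5′ to 3′ with motif matches in capitals. Clec4e lies at chr6:123289872-123290121 on the minus strand, Clec4d at chr6:123261857-123262106 on the plus strand and Clec5a at chr6:40585806-40586055 on the minus strand. Clec7a lies at chr6:129472780-129473029 on the minus strand (the first of its annotated starts), Clec9a at chr6:129408612-129408861 on the plus strand and Clec12a at chr6:129349994-129350243 on the plus strand.
Clec4e: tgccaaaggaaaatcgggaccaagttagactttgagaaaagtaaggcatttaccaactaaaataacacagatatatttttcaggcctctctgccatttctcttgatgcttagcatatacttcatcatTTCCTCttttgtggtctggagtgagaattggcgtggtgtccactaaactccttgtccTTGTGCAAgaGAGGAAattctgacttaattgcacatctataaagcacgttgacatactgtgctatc
Clec4d: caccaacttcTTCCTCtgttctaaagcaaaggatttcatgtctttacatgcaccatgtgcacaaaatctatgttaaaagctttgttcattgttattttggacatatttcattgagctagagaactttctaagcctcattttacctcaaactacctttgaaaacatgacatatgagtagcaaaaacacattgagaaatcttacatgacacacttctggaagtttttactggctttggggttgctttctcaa
Clec5a: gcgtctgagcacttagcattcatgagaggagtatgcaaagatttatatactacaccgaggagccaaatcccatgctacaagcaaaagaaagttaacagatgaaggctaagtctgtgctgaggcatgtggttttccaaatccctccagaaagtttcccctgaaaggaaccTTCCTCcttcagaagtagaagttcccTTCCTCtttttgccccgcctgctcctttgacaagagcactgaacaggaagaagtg
Clec7a: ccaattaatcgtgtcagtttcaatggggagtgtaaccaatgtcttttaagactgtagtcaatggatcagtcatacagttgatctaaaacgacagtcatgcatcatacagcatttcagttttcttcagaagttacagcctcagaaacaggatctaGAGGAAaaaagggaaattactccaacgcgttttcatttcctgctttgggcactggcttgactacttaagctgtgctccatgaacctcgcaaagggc
Clec9a: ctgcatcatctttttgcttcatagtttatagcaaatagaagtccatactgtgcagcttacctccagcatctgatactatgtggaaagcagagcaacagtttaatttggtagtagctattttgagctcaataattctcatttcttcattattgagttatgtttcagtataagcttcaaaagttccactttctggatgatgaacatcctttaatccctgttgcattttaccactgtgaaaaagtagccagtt
Clec12a: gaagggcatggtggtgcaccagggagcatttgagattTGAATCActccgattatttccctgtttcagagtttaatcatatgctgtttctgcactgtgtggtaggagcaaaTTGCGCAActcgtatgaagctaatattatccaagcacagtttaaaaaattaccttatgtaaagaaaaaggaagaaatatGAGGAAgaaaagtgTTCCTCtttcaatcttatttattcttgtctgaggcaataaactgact

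Both strands were searched for the letters TTGCNNAA (C/EBP), TGANTCA (AP-1), GGGNNNNNCC (NF-kB) and GAGGAA (PU.1, the myeloid lineage factor), which 9.56%, 6.75%, 45.8% and 23.3% of the 32851 mouse promoters hold in a window of the same length. GAGGAA or its reverse complement was found in the windows of Clec4e, Clec4d, Clec5a, Clec7a, Clec12a and Clec4a1. TTGCNNAA was found in Clec4e, 66 to 59 bases before the start, and in Clec12a, 140 to 133 bases before it. Clec12a also held TGANTCA, and Clec4a1 held 2 overlapping matches to GGGNNNNNCC. The Clec4a2 and Clec9a windows held none of these letters. Clec4e and Clec12a, which shared the C/EBP letters, were the member with the highest fold change in blood and one whose fold change was near 0. A match is a description of the letters and not of a bound site.

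Libraries held 36990033 to 46401368 estimated counts, and the least covered member, Clec9a, still had 19 counts in its lowest library. Csf1r, which encodes CD115, was present at 209 to 1192 CPM (counts scaled to a common library size after TMM, the trimmed mean of M values) in every library, and the 10 monocyte markers summed to 869 to 3832 CPM. After resection Csf1r was at 601 to 719 CPM in blood, against 209 to 467 CPM when intact. In spleen it was at 587 to 1192 against 374 to 525 CPM. The monocyte sum was 2410 to 3832 against 869 to 2127 CPM in blood, and 2940 to 3435 against 1666 to 2022 CPM in spleen. Of these 10 markers 2 passed as higher and 2 as lower in blood (median log2 fold change 0.10), and none passed in spleen. Their part in the receptor changes was not tested. Haemoglobin genes took 13.2 to 34.2% of the counts in blood and 0.0814 to 3.47% in spleen. Some libraries stood apart from their groups. Resected library 3 of each tissue had the highest summed level of 12 neutrophil markers (14131 CPM in spleen against 5118 and 5559, 20150 CPM in blood against 3979 and 5215). Intact blood library 3 had T cell markers at 2263 CPM against 710.4 and 722 in the other intact blood libraries, and Csf1r at 209 CPM against 363 and 467.

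**Figure D1:**
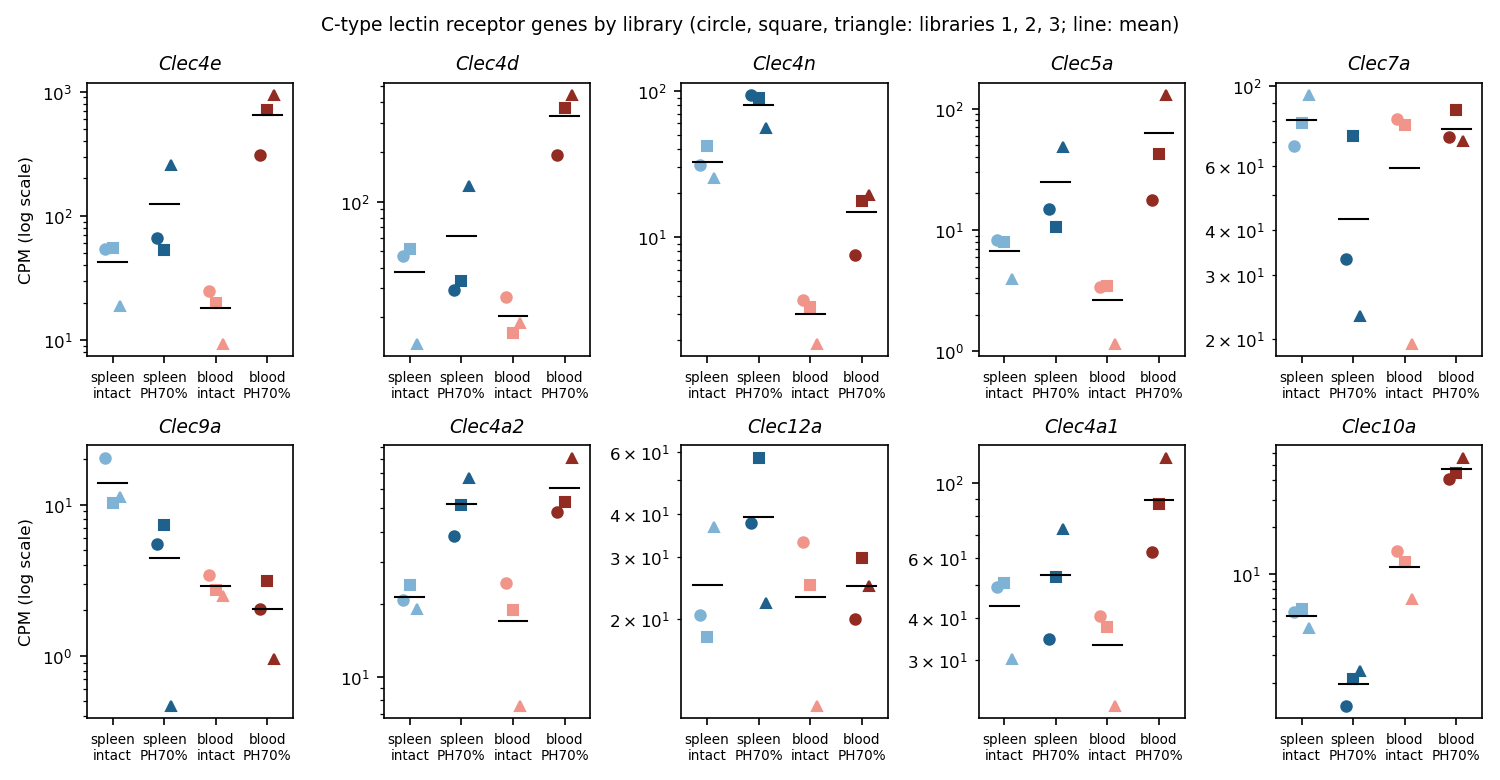
Level of each of the 10 receptor genes in CPM on log axes whose range differs between panels, by group (spleen or blood, intact or PH70% at 24 h); circles, squares and triangles are libraries 1, 2 and 3 and lines are group means. Clec4e, Clec4d, Clec5a, Clec10a and Clec4a1 sit higher in all 3 resected blood libraries than in every other group's mean, except Clec5a in library 1 (17.6 CPM against a resected spleen mean of 24.6 CPM).

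Per kilobase of exon, the order of the members differed between groups. In intact blood Clec7a was first at 26.2 ± 15.3 CPM per kb (SD, n = 3), 27.8% of the members' summed level, and Clec5a was last at 0.699 ± 0.343 CPM per kb. That place rests on both count-table entries of Clec7a described below, and the entry under the symbol alone, at 10.2 ± 6.58 CPM per kb, would come at rank 3. From Clec7a down to Clec4n each neighbour in that order overlapped the next, and Clec4n stood clear of Clec9a. In blood after resection Clec4e (257 ± 125 CPM per kb) and Clec4d (251 ± 96.6 CPM per kb) were first, with 37.8% and 36.9% of the summed level, and overlapped each other. Both stood clear of the next gene, Clec4a1, at 57.4 ± 18.2 CPM per kb, and Clec9a was last at 0.62 CPM per kb.

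In intact spleen Clec7a (35.4 ± 5.75 CPM per kb), Clec4d (28.4 ± 15.6), Clec4a1 (27.9 ± 7.4) and Clec4n (26.5 ± 6.88) led and overlapped, and Clec10a and Clec5a were last. With the symbol entry alone (10.3 ± 2.58 CPM per kb) Clec7a would come at rank 5 there. In spleen after resection Clec4n came first at 64.2 ± 16.5 CPM per kb, 24.8% of the summed level, followed by Clec4e and Clec4d, and Clec10a came last at 0.791 ± 0.198 CPM per kb. All neighbours there overlapped except Clec5a and Clec9a. Library 3 set much of that overlap, with Clec4e at 101 CPM per kb against 26.5 and 21.1 in libraries 1 and 2.

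The first comparison asked how these receptors differed between blood monocytes 24 h after resection and those of intact mice. Clec4e, Clec5a, Clec4d, Clec4n, Clec10a, Clec4a2 and Clec4a1 rose, from 2.68-fold for Clec4a1 to 36.0-fold for Clec4e, and none fell. Clec7a, Clec12a and Clec9a did not pass the test. Thus 7 of 10 members were called higher, where 13.9% of the 20135 features tested were called, 7.8% higher and 6.11% lower. A gene was called where its log2 fold change exceeded 1 in size and its p in edgeR's quasi-likelihood test, Benjamini-Hochberg adjusted over all features, was under 0.05. The median log2 fold change was 1.96 over the members and -0.10 over all features. In the same 7 members the resected and intact libraries did not overlap, as in 38.4% of all features. In bulk RNA, a change in the share of cells of a type and a change in RNA per cell cannot be told apart.

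**Figure D2:**
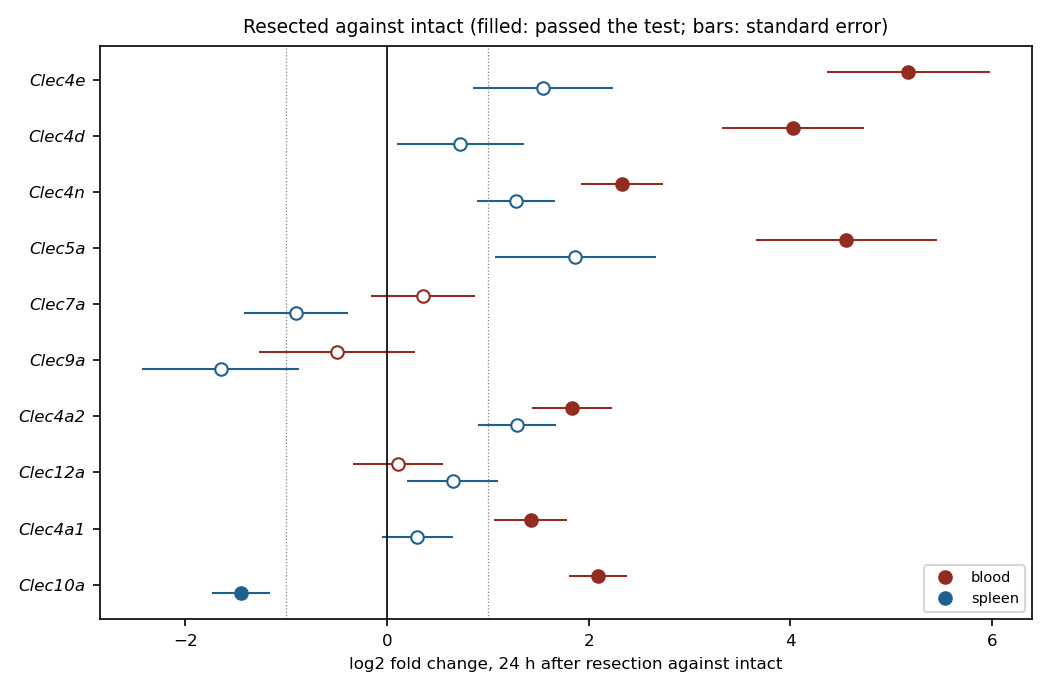
Log2 fold change of each receptor gene 24 h after resection against intact, in blood (red) and spleen (blue), with bars of 1 standard error; filled points passed the test and dotted lines mark a log2 fold change of 1 in each direction. In blood 7 filled points lie to the right, while in spleen the only filled point is Clec10a, to the left at -1.45.

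Clec4e (Mincle), which senses mycobacterial glycolipids and a protein released by dying cells, was at 24.7, 20.0 and 9.37 CPM in intact blood libraries 1 to 3 and at 308, 705 and 931 CPM after resection. The lowest resected library was above the highest intact one by more than 10 times. The log2 fold change was 5.17 (SE 0.81, adjusted p = 0.00299, edgeR). Clec4d (MCL), the partner with which Clec4e is displayed at the surface, was at 26.5, 16.0 and 18.5 CPM in intact blood and at 190.5, 366 and 439 CPM after resection, again with no overlap. This gave a log2 fold change of 4.03 (SE 0.71, adjusted p = 0.00451, edgeR). Clec4n (dectin-2), a receptor for fungal mannans and the neighbour of Clec4d, had lower levels, 3.72, 3.34 and 1.88 CPM in intact blood and 7.6, 17.7 and 19.5 CPM after resection. It rose by 2.33 on the log2 scale (SE 0.40, adjusted p = 0.00433, edgeR). Without resected blood library 3, the library with the highest neutrophil markers, the 3 values were 4.83, 3.80 and 2.11, and each gene still passed. That fit is no test of neutrophil RNA. Resected blood libraries 1 and 2 had neutrophil marker sums of 3979 and 5215 CPM, against 144 to 589 CPM in intact blood.

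Clec5a (MDL-1), a Tyrobp-coupled receptor of monocytes and neutrophils, was at 3.39, 3.47 and 1.16 CPM in intact blood and at 17.6, 42.1 and 128 CPM after resection. The resected libraries differed among themselves by 7.31 times, the widest span of any member in that group. The log2 fold change of Clec5a was 4.56 (SE 0.89, adjusted p = 0.00728, edgeR), and it was 3.50 without resected library 3 (adjusted p = 0.0222). Clec7a (dectin-1), the beta-glucan receptor, was at 81.0, 78.3 and 19.4 CPM in intact blood and at 72.2, 85.8 and 70.4 CPM after resection. For Clec7a the log2 fold change was 0.35 (SE 0.51, adjusted p = 0.666, edgeR), and it was -0.07 without intact library 3. Clec9a (DNGR-1), a receptor for filamentous actin exposed by dead cells and a marker of cross-presenting dendritic cells, was low at 2.47 to 3.44 CPM in intact blood and 0.957 to 3.13 CPM after resection. These ranges overlapped, with a log2 fold change of -0.50 (SE 0.77, adjusted p = 0.688, edgeR).

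Clec4a2 (DCIR), an inhibitory receptor, was at 24.6, 19.0 and 7.58 CPM in intact blood and at 48.2, 53.0 and 81.1 CPM after resection. It rose by 1.83 on the log2 scale (SE 0.39, adjusted p = 0.0109, edgeR). It just missed the threshold when only the groups compared were fitted (1.83, adjusted p = 0.0566, edgeR) and without both resected libraries 3 (1.58, adjusted p = 0.0517, edgeR). Clec4a1, another gene of the DCIR group, was at 40.6, 37.5 and 22.0 CPM in intact blood and at 62.4, 86.9 and 119 CPM after resection. This was the smallest change that passed, 1.42 on the log2 scale (SE 0.36, adjusted p = 0.0207, edgeR), and it did not pass without intact library 3 (1.19, adjusted p = 0.0523), resected library 2 (1.44, adjusted p = 0.0586) or resected library 3 (1.18, adjusted p = 0.0846). Clec12a (MICL), an inhibitory receptor for uric acid crystals, was at 33.1, 24.9 and 11.2 CPM in intact blood and at 20.0, 29.8 and 24.9 CPM after resection. The ranges overlapped, and the log2 fold change was 0.11 (SE 0.45, adjusted p = 0.892, edgeR). The inhibitory members thus differed, Clec4a2 passing the test and Clec12a not.

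Clec10a (MGL1) was at 14.1, 12 and 6.95 CPM in intact blood and at 40.8, 44.1 and 55.7 CPM after resection, with no overlap. Its log2 fold change was 2.09 (SE 0.29, adjusted p = 0.00171, edgeR), the smallest adjusted p of the members. The adjacent paralog Mgl2, which holds 10.6% of the 50-base words of the Clec10a transcript, had the opposite sign at 38.5, 26.5 and 5.68 CPM in intact blood against 13.9, 10.4 and 5.6 CPM after resection (log2 fold change -1.24, SE 0.57, adjusted p = 0.15, edgeR). Reads in such shared stretches could be assigned to either gene. Clec4a2 shared 8.92% of its words with other genes, Clec4a4 and Clec4b1 among them, Clec9a 4.19% with Clec1b, Clec4n 0.932%, and the other members none.

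The second comparison asked the same of splenic monocytes. Clec10a fell, and no other member passed the test, so 1 of 10 members was called, where 1.38% of all features were (0.78% higher, 0.596% lower). That background is itself unstable: the 277 features called became 1 without intact spleen library 1, 3 without intact spleen library 2, 25 without resected spleen library 3 and 1025 without intact blood library 3. Clec10a was at 5.70, 5.97 and 4.53 CPM in spleens of intact mice and at 1.42, 2.12 and 2.38 CPM following resection, with no overlap. It fell by 1.45 on the log2 scale (SE 0.29, adjusted p = 0.0402, edgeR), with the direction opposite to blood. This call was lost on leaving out any single library of the series except intact blood library 3, with values from -1.60 to -1.26 and adjusted p from 0.0125 to 0.184. Mgl2 reached at most 1.14 CPM in any spleen library.

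For 5 members the unadjusted p in spleen was under 0.05, and 4 of them had higher means after resection. Clec4n was at 31.0, 42.2 and 25.4 CPM in spleens of intact mice and at 93.1, 89.9 and 56.2 CPM after resection, with no overlap and a log2 fold change of 1.28 (SE 0.38, adjusted p = 0.104, edgeR). Clec4a2 was at 20.8, 24.1 and 19.2 CPM against 38.4, 51.7 and 66.7 CPM after resection, again with no overlap (log2 fold change 1.29, SE 0.39, adjusted p = 0.104, edgeR). Both passed with DESeq2. The 5 members without overlap in spleen were Clec10a, Clec4n, Clec4a2, Clec5a and Clec9a, against 35.1% of all features, and the median log2 fold change of the members was 0.69 against 0.05 over all features.

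The splenic values of Clec4e, Clec4d and Clec5a turned on resected library 3. Clec4e was at 54.3, 55.3 and 18.8 CPM in the intact spleen libraries and at 66.7, 53.3 and 255 CPM after resection, and its log2 fold change of 1.55 (SE 0.69, adjusted p = 0.238, edgeR) was 0.49 without that library. Clec4d was at 47.1, 51.7 and 13.9 CPM against 29.1, 33.3 and 124 CPM, and its log2 fold change of 0.73 (SE 0.63, adjusted p = 0.558, edgeR) turned to -0.27 without it. Clec5a was at 8.31, 8.02 and 3.92 CPM against 14.9, 10.5 and 48.5 CPM, with 1.87 (SE 0.79, adjusted p = 0.217, edgeR) and 0.91 without it. In all 3 genes library 3 was the highest after resection and the lowest when intact. Clec9a went the other way in that library, at 0.467 CPM against 5.49 and 7.38 CPM in the other resected spleen libraries and 10.3 to 20.4 CPM in intact spleen (log2 fold change -1.65, SE 0.78, adjusted p = 0.262, edgeR).

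Clec7a in spleen was at 68.2, 79.2 and 94.2 CPM when intact and at 33.3, 72.6 and 23.1 CPM after resection, with overlap (log2 fold change -0.90, SE 0.52, adjusted p = 0.353, edgeR). Clec4a1 (0.30, SE 0.35, adjusted p = 0.684) and Clec12a (0.65, SE 0.45, adjusted p = 0.448) had small fold changes with overlapping ranges. Clec4a1 was at 30.2 to 50.8 CPM in intact spleen and 34.6 to 73.1 CPM after resection, and Clec12a at 17.8 to 36.6 CPM and 22.1 to 57.9 CPM.

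The count table held Clec7a under more than 1 name. Of its counts, 57.0% stood under a non-coding RefSeq accession that the reference table assigns to Clec7a, and 27.4 to 73.8% did so in single libraries. The entry under the symbol went from 23.1 ± 15 to 48.4 ± 1.58 CPM (SD, n = 3) in blood with resection, and the accession entry from 36.5 ± 20.9 to 27.8 ± 7.03 CPM. Taken as deposited, their log2 fold changes in blood were 1.06 (SE 0.52, adjusted p = 0.185, edgeR) and -0.39 (SE 0.64, adjusted p = 0.72, edgeR). In spleen the symbol entry was at 23.5 CPM in intact and 21.4 CPM in resected mice, and the accession entry at 57.1 and 21.6 CPM (log2 fold change -1.40, SE 0.65, adjusted p = 0.262, edgeR). The accession entry held 68.6 to 73.8% of Clec7a in intact spleen and at most 56.2% after resection, and 55.3 to 66.3% in intact blood and at most 41.6% after resection. A test of this share was not run. An accession entry also held 9.16% of Clec4e counts and moved as the symbol did in blood (log2 fold change 4.98 and 5.19). Clec7a overlaps the predicted gene Gm45969 and Clec9a overlaps Clec12b, and how the authors' counter assigned reads there was not given in the sources used here.

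**Figure D3:**
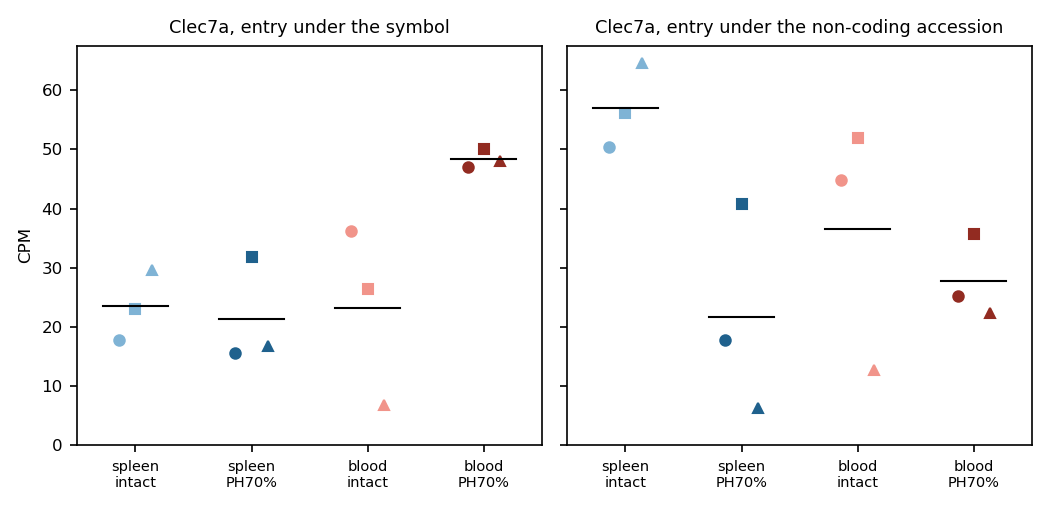
Level in CPM of the count-table entries that make up Clec7a, under the gene symbol (left) and under the non-coding accession (right), by group; circles, squares and triangles are libraries 1, 2 and 3 and lines are means. After resection the symbol entry in blood lies between 47.0 and 50.1 CPM, while the accession entry in spleen has a mean of 21.6 CPM against 57.1 CPM in intact mice.

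The third comparison set blood against spleen in each state, with the same libraries as in the comparisons above. In intact mice Clec4n was lower in blood and Clec10a higher, and the other 8 members did not pass, so 2 of 10 were called, where 7.35% of all features were (3.86% higher in blood, 3.49% lower). Clec4n was at 1.88 to 3.72 CPM in blood and 25.4 to 42.2 CPM in spleen, a log2 fold change of -3.47 (SE 0.42, adjusted p = 0.00198, edgeR). Clec10a was at 6.95 to 14.1 CPM in blood and 4.53 to 5.97 CPM in spleen, a log2 fold change of 1.03 (SE 0.28, adjusted p = 0.0487, edgeR). That value was close to both thresholds, and 9 of the 12 leave-one-out fits lost the call. Clec9a, at 2.47 to 3.44 CPM in blood and 10.3 to 20.4 CPM in spleen, did not overlap but missed the threshold (log2 fold change -2.28, SE 0.80, adjusted p = 0.105, edgeR). It passed with DESeq2, and when only the groups compared were fitted. The members without overlap were 4 of 10, against 34.5% of all features.

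**Figure D4:**
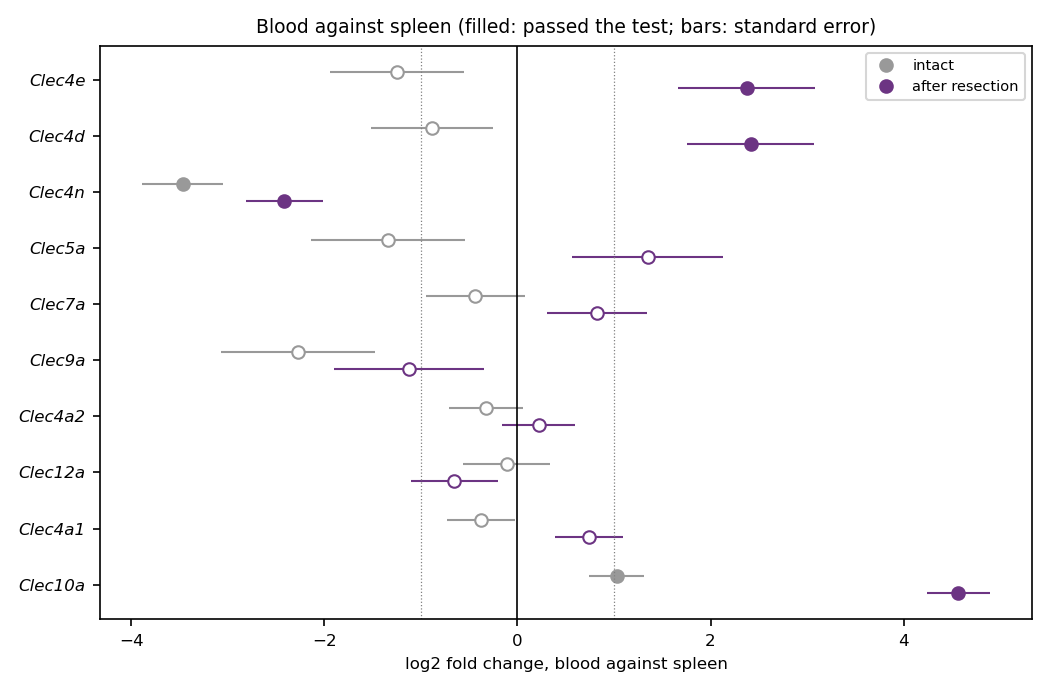
Log2 fold change of each receptor gene in blood against spleen, in intact mice (grey) and 24 h after resection (purple), with bars of 1 standard error; filled points passed the test and dotted lines mark a log2 fold change of 1 in each direction. Clec4n is lower in blood in both states, Clec10a is higher in blood in both, and Clec4e and Clec4d are open and to the left in intact mice, filled and to the right after resection.

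After resection Clec10a, Clec4d and Clec4e were higher in blood and Clec4n was lower, 4 of 10 members called, where 13.2% of all features were (6.28% higher, 6.87% lower). Clec10a was at 40.8 to 55.7 CPM in blood and 1.42 to 2.38 CPM in spleen, 23.7-fold (log2 fold change 4.57, SE 0.32, adjusted p = 7.4e-05, edgeR). No setting lost that call. Clec4d was 5.34-fold higher in blood (log2 fold change 2.42, SE 0.66, adjusted p = 0.0301, edgeR) and Clec4e 5.18-fold higher (2.37, SE 0.71, adjusted p = 0.0429, edgeR). Clec4d lost its call in 4 and Clec4e in 8 of the 12 leave-one-out fits, and without resected spleen library 3 their log2 fold changes were 3.51 and 3.53. Clec4n was at 7.6 to 19.5 CPM in blood and 56.2 to 93.1 CPM in spleen (log2 fold change -2.42, SE 0.40, adjusted p = 0.00383, edgeR). The same 4 members did not overlap between tissues, against 42.4% of all features. The neighbours Clec4n, Clec4d and Clec4e thus rose together in blood with resection, while between tissues Clec4n passed as lower in blood in both states and Clec4e (-1.25) and Clec4d (-0.89) did not pass in intact mice.

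The difference between the resection effects in blood and spleen was tested as an interaction. Clec10a passed, with a difference of 3.54 on the log2 scale (SE 0.41, adjusted p = 0.0215, edgeR), the only member called, where 0.283% of all features were (0.219% higher in blood, 0.0646% lower). By p-value its rank was 4 of the 20135 features. The 57 features called by the interaction became 5 to 93 over the fits without 1 library. For Clec4e (3.62, SE 0.99, adjusted p = 0.155), Clec4d (3.30, SE 0.91, adjusted p = 0.156), Clec5a (2.69, SE 1.12, adjusted p = 0.261) and Clec4a1 (1.12, SE 0.50, adjusted p = 0.286) the difference had an unadjusted p under 0.05 but did not pass after adjustment in edgeR. With DESeq2 Clec4e (3.65, adjusted p = 0.00428) and Clec4d (3.34, adjusted p = 0.00536) passed, so whether their response was larger in blood depended on the tool, and for Clec5a it is not shown by edgeR's test. For Clec4n (1.05, SE 0.54), Clec4a2 (0.54, SE 0.54), Clec7a (1.26, SE 0.73), Clec9a (1.15, SE 1.08) and Clec12a (-0.54, SE 0.63) the difference did not pass either. The median over the members was 1.21, against -0.12 over all features. The Clec10a call was lost without intact spleen library 2 (3.46, adjusted p = 0.0724), intact blood library 2 (3.62, adjusted p = 0.0503) or resected blood library 2 (3.59, adjusted p = 0.0557).

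Among 26 genes of the signalling chain of these receptors, 6 rose and 1 fell in blood after resection, where 7.8% of all features rose and 6.11% fell. Fcer1g, the adaptor of Clec4e, Clec4d and Clec4n, was at 80.9, 75.3 and 33.8 CPM in intact blood and at 180.4, 224 and 326 CPM after resection (log2 fold change 1.94, SE 0.35, adjusted p = 0.00529, edgeR). Tyrobp, the adaptor of Clec5a, was at 204, 165 and 66.7 CPM against 442, 515 and 585 CPM (1.82, SE 0.35, adjusted p = 0.00696). Card9 was at 24.1, 21.6 and 9.48 CPM against 48.6, 47.4 and 60.2 CPM (1.50, SE 0.40, adjusted p = 0.0248), but it lost its call without intact blood library 2 (1.63, adjusted p = 0.0522) or any 1 of the resected blood libraries 1 to 3 (1.54, 1.55 and 1.39, adjusted p = 0.0549, 0.0622 and 0.0851, edgeR), and with the replicate block (1.48, adjusted p = 0.0576). The Src-family kinase Fgr also rose (1.53), with Vav3, a guanine exchange factor (1.26), while the transcription factor Nfatc2 fell by 1.35. Fgr, Vav3 and Nfatc2 did not pass without both resected libraries 3, with values of 1.15, 0.95 and -1.14, and lost their calls in 6, 10 and 9 of the 12 leave-one-out fits. The adaptors Fcer1g and Tyrobp thus rose with the receptors, whereas the shared kinase did not pass: Syk was at 289 to 1119.6 CPM in intact blood and 883 to 1259 CPM after resection (0.42, SE 0.40, adjusted p = 0.494, edgeR). Ptpn6, the phosphatase of the inhibitory members, was likewise not called (0.39, SE 0.39, adjusted p = 0.51, edgeR).

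In spleen none of the 26 signalling genes passed in edgeR's test with resection, 1 of them having an unadjusted p under 0.05, namely Fcer1g at 76.1 ± 7.17 CPM intact and 154 ± 44.8 CPM after resection (log2 fold change 1.01). Tyrobp (0.59), Card9 (0.60), Syk (-0.39) and Ptpn6 (-0.85) did not pass there. Between tissues in intact mice Ptpn6 (-1.69) and the phosphatase Inpp5d (-1.17) were lower in blood. Inpp5d lost that call in all 12 leave-one-out fits and Ptpn6 in 9 of them. Syk was at -0.67, Fcer1g at -0.27, Tyrobp at -0.26 and Card9 at -0.02, the last sign turning with other scaling (0.06 with RLE size factors, 0.09 without haemoglobin genes). After resection the ubiquitin ligase Cblb was higher in blood (1.07), with Tyrobp at 0.98, Card9 at 0.88, Fcer1g at 0.66, Syk at 0.13 and Ptpn6 at -0.45, none of these 5 passing. The interaction called none of the 26 genes, 4 having an unadjusted p under 0.05.

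Of 26 other C-type lectin genes 22 were tested. In blood with resection 3 rose, where 7.8% of all features did. Cd302, an endocytic lectin of myeloid cells, was at 15.6, 13.2 and 9.2 CPM in intact blood and 59.2, 75.5 and 107 CPM after resection (log2 fold change 2.67, SE 0.28, adjusted p = 0.00067, edgeR), and it also passed in spleen (1.56, SE 0.27, adjusted p = 0.0275, edgeR). The splenic call was lost in 7 of the 12 leave-one-out fits (adjusted p up to 0.161, edgeR), with the replicate block (adjusted p = 0.0506) and without both resected libraries 3 (1.58, adjusted p = 0.0818). Olr1, the receptor for oxidized low-density lipoprotein and the gene next to Clec7a, was at 1.32, 0.54 and 0.786 CPM in intact blood and 22.9, 28.9 and 53.2 CPM after resection (5.31, SE 0.83, adjusted p = 0.00299, edgeR). Clec4b2, which lies next to Clec4n, passed on 2, 3 and 10 counts after resection against 1, 0 and 0 counts in intact blood, too few for a fold change. Olr1 thus moved in blood beside a Clec7a that did not pass.

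Between tissues in intact mice Clec1b (3.65), a platelet receptor, and Mgl2 (4.64) were higher in blood, and Cd207 (-5.46), Clec4a4 (-3.24) and Clec4b2 were lower on the log2 scale. Clec4b2 had 15, 28 and 21 counts in intact spleen. After resection Clec1b (3.89), Mgl2 (4.0) and Olr1 (3.28) were among 5 genes that passed as higher in blood, and Clec4a4 was lower (-2.06), a call lost in 5 of the 12 leave-one-out fits. Clec3b passed on 23, 15 and 7 counts in blood against 1, 3 and 1 counts in spleen, at or under the floor of 3 counts, so no fold change is given. Mgl2 and Clec10a were therefore both higher in blood than in spleen in both states.

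Markers of other cells moved along with these results. All 12 neutrophil markers rose in blood with resection (median log2 fold change 3.57), and their summed level went from 144 to 589 CPM in intact blood to 3979 to 20150 CPM. In spleen 2 of 12 rose, from 1265 to 2214 CPM to 5118 to 14131 CPM summed. Neutrophils also express Clec4e, Clec4d and Clec5a. In resected libraries 1 and 2 the summed neutrophil level was 3979 and 5215 CPM in blood and 5559 and 5118 CPM in spleen, while Clec4e was at 308 and 705 CPM in blood and 66.7 and 53.3 CPM in spleen. Clec4d was at 190.5 and 366 CPM in those blood libraries and 29.1 and 33.3 CPM in the spleen ones. Clec5a was closer, at 17.6 and 42.1 CPM in blood and 14.9 and 10.5 CPM in spleen. The largest terms of that sum were S100a8 and S100a9, and single markers differed in these libraries. Ltf was at 153 and 137 CPM in blood and 360 and 413 CPM in spleen, and Mmp9 at 499 and 657 CPM and 413 and 237 CPM. A like sum thus need not mean like neutrophil RNA, and the part of neutrophil RNA in the rises was not tested.

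**Figure D5:**
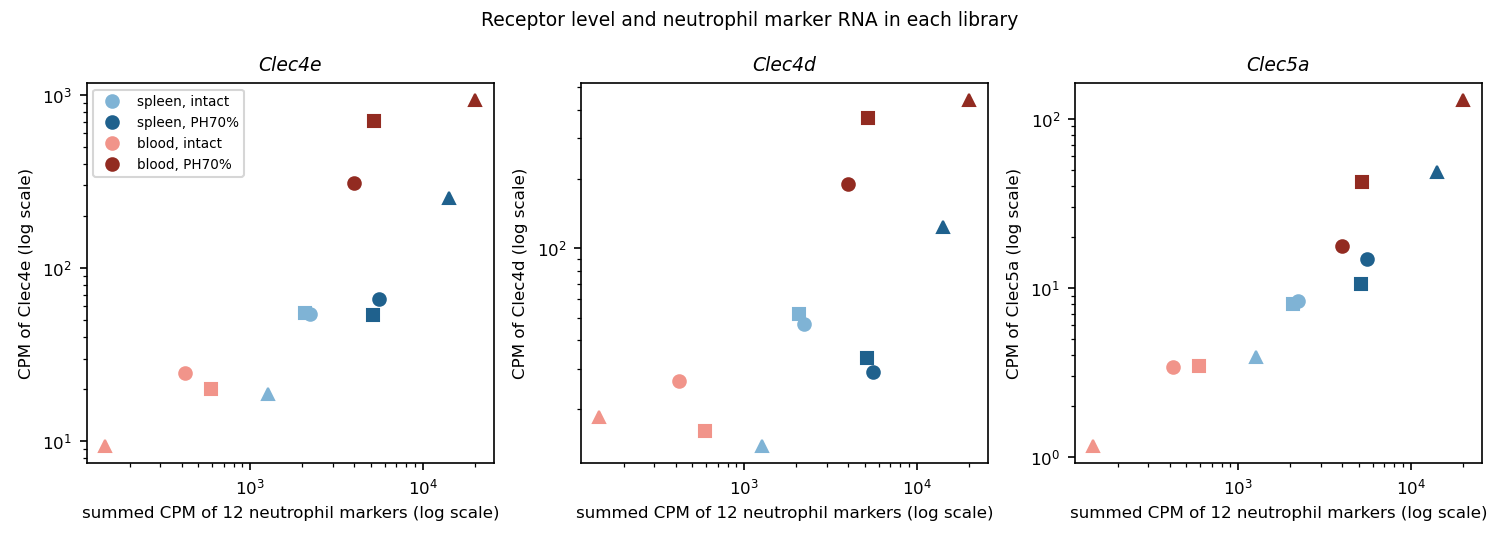
Level of Clec4e, Clec4d and Clec5a in CPM against the summed CPM of 12 neutrophil markers in each of the 12 libraries, both axes logarithmic; colours are groups, and circles, squares and triangles are libraries 1, 2 and 3. The resected blood libraries 1 and 2 lie above the resected spleen libraries 1 and 2 for Clec4e (308 and 705 against 66.7 and 53.3 CPM) and Clec4d, and less so for Clec5a. The sums of these libraries are near each other, but single neutrophil markers differ between them.

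Red pulp macrophage markers went from 176 to 255 CPM summed in intact blood to 1639 to 2128 CPM after resection, 6 of 7 rising. The largest terms after resection were Adgre1 (793 to 1140 CPM) and Hmox1 (565 to 801 CPM). Spic reached 1.98 to 6.42 CPM there, against 75 to 126 CPM in resected spleen. Vcam1 reached 1.37 to 4.78 CPM, against 377 to 1572 CPM in resected spleen. Axl was lower in resected blood (6.5 to 10.95 CPM) than in intact blood (18.9 to 44.3 CPM). The sum alone thus does not show more red pulp macrophage RNA. Large peritoneal macrophage markers went from 239 to 712 CPM to 2483 to 2834 CPM in blood, 5 of 7 rising. T cell markers fell in blood, 5 of 6. Of the conventional dendritic cell markers, a list not limited to the cells known for Clec9a, 1 of 10 rose and 1 fell in blood. Their sum was 683 to 773 CPM before and 1055 to 1414 CPM after resection. Its largest terms were Cd24a (279 to 410 CPM before, 554 to 787 CPM after) and Sirpa (91.5 to 264 CPM before, 293 to 518 CPM after). The rest went either way, as Naaa (41.4 to 85.6 CPM before, 108 to 121 CPM after) and Dpp4 (60.4 to 114 CPM before, 22.6 to 34.1 CPM after) did. No marker of these lists was at 0 in every library of a group. Their part in the changes of Clec10a, Clec4a1, Clec4a2 and Clec4n was not tested.

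Markers also differed between the tissues. In intact mice 5 of 7 large peritoneal macrophage markers (median log2 fold change 2.40) and 4 of 5 platelet markers were higher in blood than in spleen, while 5 of 7 red pulp macrophage markers (median -2.90), 6 of 12 neutrophil markers (median -2.47) and 4 of 10 conventional dendritic cell markers (median -1.03) were lower. After resection 6 of 7 large peritoneal macrophage markers (median 4.43) and all 5 platelet markers (median 3.59) were higher in blood, and of the red pulp macrophage markers 1 of 7 was higher and 4 were lower (median -3.02). Their part in the tissue differences of Clec10a, Clec4n, Clec4d, Clec4e and Clec1b was not tested.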

How the data were processed

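Total RNA of magnetically sorted CD115+ monocytes was made into strand-specific mRNA libraries, with 3 libraries in each of 4 groups and 5 mice pooled per library. The authors deposited estimated counts per gene or transcript accession, one file per library. Per the labels GRCm39 and STAR were used, and the counter and annotation were not given in the sources used here. Entries that name no gene held 1.75 to 4.33% of the counts and stayed out of the tests. Of 40274 RefSeq accession entries, 25340 matched the GRCm38.p6 table and were added to their gene, and newer accessions could hold further counts of the members. Estimated counts were rounded to whole numbers.

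edgeR 4.0.16 (R 4.3.3) was fitted to all 12 libraries (TMM, filterByExpr, quasi-likelihood F-test, Benjamini-Hochberg over 20135 features). SE is the absolute log2 fold change over the square root of F. The total counts per library set the counting error, which is small beside the spread between libraries. Exon lengths came from GENCODE on GRCm38 and served for levels per kilobase only. No 2 libraries of a group agreed within sampling noise.

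The members and lists were chosen with earlier results of these data known. The text names the 10 members throughout, the called genes of both further lists (up to 4 per direction by smallest p) and Fcer1g, Tyrobp, Syk, Card9 and Ptpn6. Vav3 was named after its values were seen, and 1 further called gene is not reported here. Alternatives were other size factors (RLE, or TMM without haemoglobin genes), no filter or at least 10 counts in every library, entries as deposited, only the groups compared, a replicate block, DESeq2 1.42.0, no limit on the fold, unadjusted p-values, and each library left out. Leaving out both resected libraries 3 was added after seeing the data.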

Additional observations from a re-analysis of the deposited data

Results flagged for a closer look

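Clec10a responded differently in the 2 tissues: its level rose in blood with resection and fell in spleen, and the interaction of tissue and resection was 3.54 on the log2 scale (SE 0.41, adjusted p = 0.0215, edgeR's quasi-likelihood test over all features). All 3 resected blood libraries (40.8 to 55.7 CPM) were above all 3 intact ones (6.95 to 14.1 CPM), and all 3 resected spleen libraries (1.42 to 2.38 CPM) were below all 3 intact ones (4.53 to 5.97 CPM). Over the alternatives tried the difference was 3.29 to 3.80, and adjusted p was above 0.05 in 5 of them, as given beside the processing results. The fall in spleen taken alone lost its call in 11 of the 12 leave-one-out fits. The levels in spleen rest on 61 counts in the lowest library.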

How the results depend on the processing

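Of 1040 values of the members under the alternatives, 963 kept their direction and their side of the threshold, 57 no longer passed, 9 newly passed and 11 changed sign. In blood 7 members were called with resection in every setting except when only the groups compared were fitted (6), when both resected libraries 3 were left out (5) and in 3 of the fits without 1 library (6 to 7 over all of them). In spleen the count of 1 became 5 with unadjusted p-values, 3 with DESeq2, and 0 without the filter on low counts, with only the groups compared, with the replicate block and without both resected libraries 3, and 0 to 2 without 1 library. Between tissues in intact mice the count of 2 became 1 without the filter, with entries as deposited and with the replicate block, and 1 to 3 without 1 library. After resection the count of 4 became 2 with only the groups compared and with the replicate block, and 2 to 4 without 1 library. For the difference of the effects the count of 1 became 5 with unadjusted p-values, 3 with DESeq2, 0 with the replicate block, 0 without both resected libraries 3, and 0 to 1 without 1 library. The counts over all features moved as well without 1 library. For resection in blood the 2801 features called became 1627 to 2814. Between tissues the 1480 called in intact mice became 531 to 1494, and the 2648 after resection became 1450 to 3625. The cause of these changes was not tested.

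Sign changes touched values that had not passed. On the log2 scale, without 1 library Clec12a ranged from -0.23 to 0.49 and Clec7a from -0.071 to 0.66 for resection in blood, and Clec4d from -0.27 to 1.06 in spleen (-0.28 without both resected libraries 3). For intact blood against spleen the ranges were -0.40 to 0.37 for Clec12a, -0.62 to 0.13 for Clec4a2, -0.65 to 0.089 for Clec7a, -0.21 to 0.40 for Card9, -0.42 to 0.14 for Fcer1g and -0.52 to 0.19 for Tyrobp. There Clec12a was 0.0044 without haemoglobin genes, Clec7a 0.077 with entries as deposited, and Card9 0.062 with RLE size factors, 0.090 without haemoglobin genes, 0.058 without the filter, 0.066 with entries as deposited, 0.057 with DESeq2 and 0.064 without both resected libraries 3. Leaving haemoglobin genes out moved the median of all features from -0.02 to 0.10 between tissues in intact mice and from -0.14 to -0.02 after resection.

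The replicate numbers were not used as pairs in the main fit, and whether they pair blood with spleen is not known. Over all pairs of groups, same-numbered libraries had correlated deviations of -0.05 to 0.19, not above 0.1 in every pair. Between blood and spleen after resection they were 0.042, 0.131 and 0.189 for libraries 1 to 3, against at most -0.020, 0.073 and -0.101 with another number. In intact mice they were 0.00020, 0.051 and 0.035, against at most 0.00064, 0.0021 and -0.0021. A shared origin of these libraries was not tested. With the replicate block 7 members passed with resection in blood. Depth was not limiting for the members except Clec9a, with 19 counts in resected spleen library 3.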
